A study of Mus musculus with 45 samples.

Results

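The Tgfbr2 locus was taken as the stretch of 1.05 Mb of mouse chromosome 9 from position 115950000 upward on build mm9, which is named for Tgfbr2 and the region upstream of it. All domains of acetylated histone H3 lysine 9 (H3K9ac) that overlap this window were members, which gave 7 of the 44165 domains of the study. The window was chosen from earlier results of these data. Its rule names no comparison, but a bin of 1 Mb here stood out in those results as a gain in CK-p25 mice at 2 weeks, and tau mice at 11 months had many such gains. The choice was therefore taken to rest on these 2 comparisons, whose values are given below as a description, with no test. Tests are given for the libraries at 6 months and at 6 weeks, and they are independent of the choice only as far as that inference holds.

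Tgfbr2 encodes the type II receptor for transforming growth factor beta, a serine/threonine kinase at the cell surface. It binds the ligand, recruits and phosphorylates the type I receptor, and that receptor phosphorylates SMAD proteins, which enter the nucleus and act on target genes. In the brain this pathway is known for keeping microglia in their resting state and for its part in blood vessels and in the response of astrocytes. H3K9ac is found at active promoters and enhancers.

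H3K9ac was measured by chromatin immunoprecipitation and single-end sequencing in hippocampus from 2 mouse models of neurodegeneration, with 23 H3K9ac libraries in 8 groups. In the tau series, transgenic mice carrying human MAPT with the P301S mutation were compared with wild type mice of the same age and sex: females at 6 months, with 2 libraries from tau and 3 from wild type mice, and males at 11 months, with 3 of each. In the CK-p25 series, female double-transgenic CK-p25 mice were compared with female CK littermates 2 weeks after induction of p25, at 3.5 months of age, and 6 weeks after it, at 4.5 months, with 3 libraries in each group. The protein p25 is a fragment of the Cdk5 activator p35 and keeps that kinase active. Age changed together with sex in the tau series and with the time since induction in the CK-p25 series. The labels used here do not give the promoters of the transgenes or say whether a library was 1 animal, so p-values measure the spread between libraries.

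Each library of the tau series held 4097974 to 6181925 reads in domains, and each of the CK-p25 series 996369 to 4133003, where CK replicate 3 and CK-p25 replicate 3 at 6 weeks were the shallowest. The 7 domains of the locus together held 61 to 583 reads per library. Levels are given as CPM (counts-per-million of the reads in domains), scaled by the TMM method, which aligns libraries on the bulk of their domains. The antibody lots of both series differ, so levels are ordered only within a series. In whole tissue, a change in the number of cells of a type and a change in acetylation per cell cannot be told apart. The domains carry no gene names, so the hippocampal origin was not checked against markers.

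A single broad domain held most of the acetylation of the locus. It lay at 116082002 to 116085155, was 3154 bp wide, and held 77.2% of all reads of the locus, with 73.8% to 82.5% in single libraries. Of all domains in the study, 93.5% were narrower and 78.3% had fewer reads per length. The other 6 domains were 100 to 451 bp wide, below the median width of 776 bp over all domains. They are named here by the distance of their centre from the centre of the broad domain.

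On the side of lower coordinates the domains at -75.2 kb (116008174 to 116008622), -27.8 kb (116055520 to 116055970) and -7.86 kb (116075619 to 116075825) followed each other. On the side of higher coordinates lay the domains at +69.8 kb (116153140 to 116153567), +202 kb (116285395 to 116285494) and +209 kb (116292821 to 116293236). All 7 fell within 285.1 kb, and the 706.8 kb from the last of them to the upper end of the window held no domain. The broad domain had the highest density in both series, at 18.2 CPM per kb in the tau and 21.2 CPM per kb in the CK-p25 libraries. The lowest was at +69.8 kb in the tau series, at 4.18 CPM per kb, and at -75.2 kb in the CK-p25 series, at 7.76 CPM per kb. In the CK-p25 series the +69.8 kb domain followed at 8.06 CPM per kb.

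**Figure D1:**
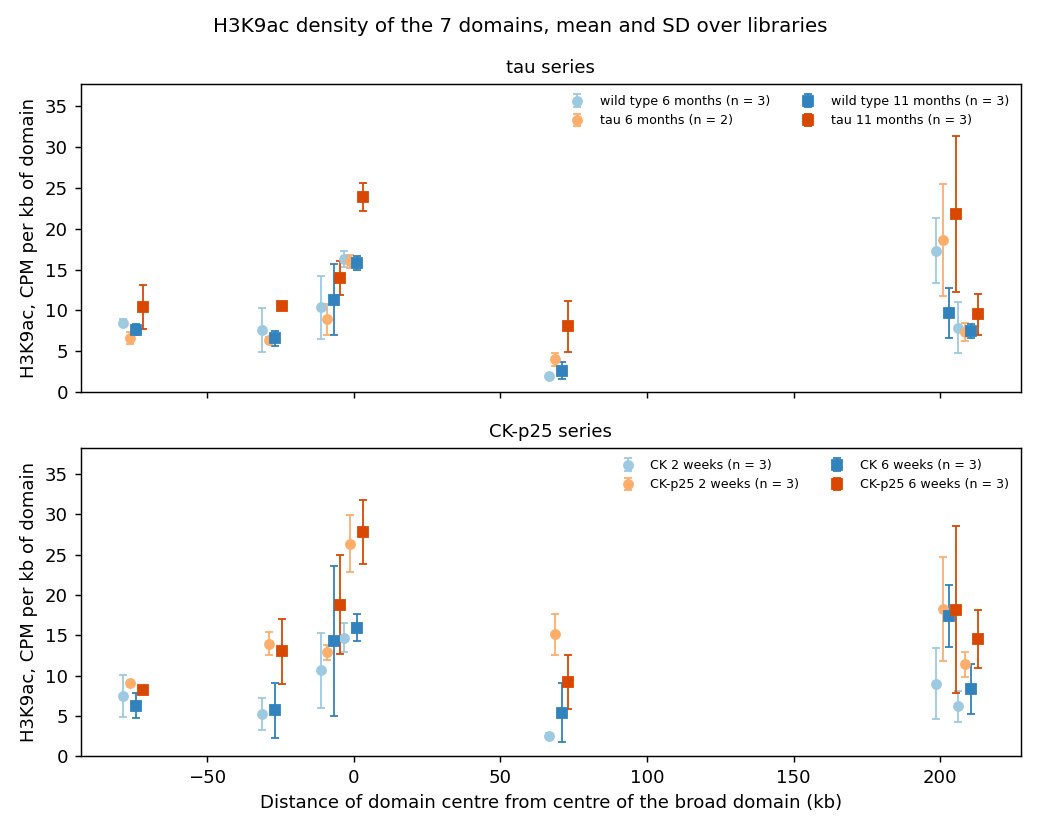
H3K9ac density (CPM per kb of domain) of each of the 7 domains against the distance of its centre from the centre of the broad domain, with points for the group mean and bars for the SD over the 2 or 3 libraries of a group; points of a domain are set slightly apart sideways. The broad domain at 0 kb averages 18.2 CPM per kb in the tau and 21.2 CPM per kb in the CK-p25 series, and in both CK-p25 groups and in tau mice at 11 months it sits above the other groups of its series.

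In the gene order of the later build GRCm38, Tgfbr2 lies between Gadl1 and Rbms3 among protein-coding genes. Gadl1 encodes a decarboxylase of acidic amino acids and Rbms3 an RNA-binding protein. No gene annotation of mm9 was used here, so exons, introns and gene starts are not assigned to the domains, and which domain covers the start of Tgfbr2 is not stated.

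The RefSeq promoter of Tgfbr2 is shown because the locus is named for this gene, whose start is where H3K9ac would be looked for. It holds 300 bases around the gene start (GRCm38.p6, chr9:116175314-116175613, minus strand). These positions are not comparable with the mm9 positions of the domains. Capitals mark matches to CCAAT on either strand.
Tgfbr2 promoter: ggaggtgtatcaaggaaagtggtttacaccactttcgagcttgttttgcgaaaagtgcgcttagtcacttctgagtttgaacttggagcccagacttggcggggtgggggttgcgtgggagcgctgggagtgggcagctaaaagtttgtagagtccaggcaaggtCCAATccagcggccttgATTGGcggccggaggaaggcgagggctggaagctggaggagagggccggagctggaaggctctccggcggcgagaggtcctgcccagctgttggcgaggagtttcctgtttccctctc

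The promoter was 59.0% G and C with 15 CpG dinucleotides, against medians of 52.7% and 7 over 32851 RefSeq promoters of 300 bases. Both strands were searched for 5 short motifs, chosen with this sequence in view. CCAAT, the CCAAT box, matched at 2 places, at positions -85 and -68 from the gene start, and was present in 37.4% of all promoters. CAGAC, the core of SMAD-binding elements, matched at 1 place, as it did somewhere in 49.6% of promoters. GAGGAA, a core bound by ETS factors such as PU.1 of microglia, also matched at 1 place, against 28.3% of promoters. GGGCGG, the GC box, and TATAAA, the TATA box, were not in this window and were present in 35.7% and 13.6% of promoters. No matches of different motifs overlapped. These are matches of letters and not measured sites.

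At 6 weeks after p25 induction, CK-p25 mice had more H3K9ac over the broad domain than their CK littermates. CK replicates 1, 2 and 3 held 55.8, 49.5 and 45.6 CPM (50.3 ± 5.19, SD, n = 3). CK-p25 replicates held 79.9, 81.0 and 102 CPM (87.7 ± 12.5, SD, n = 3). All 3 CK-p25 libraries thus stood above all 3 CK libraries, and the shallowest library of each group was the lowest in CK and the highest in CK-p25. The log2 change was 0.71 ± 0.12 (SE), a 1.64-fold gain, with an adjusted p of 1.38e-05 over all domains in edgeR's quasi-likelihood test. Among 38193 domains tested, 1.32% passed that test with a gain. Of the 7 members 5 had enough reads to be tested in the CK-p25 series, and the broad domain was the 1 that passed. The filter on low counts took in the 2-week libraries, from which the window was chosen. On the 6-week libraries alone only the broad domain and the +209 kb domain met it, and the broad domain again passed (log2 0.71, edgeR adjusted p = 3.35e-05).

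Without both shallow libraries, with 2 libraries left in each group, the change of the broad domain was 0.59 (edgeR adjusted p = 0.00282). The labels give a cross correlation for each library, which reflects how strongly reads are enriched. Its mean at 6 weeks was 0.0928 in CK and 0.131 in CK-p25 libraries, with overlapping ranges. With it as a covariate the change was 0.81 (edgeR adjusted p = 7.05e-06).

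The other 4 tested members had positive changes at 6 weeks that did not pass, where 49.7% of all tested domains had positive changes. Of these 4, only the +209 kb domain met the filter on low counts with the 6-week libraries alone. At +69.8 kb the level was 0.947, 1.95 and 4.05 CPM in CK and 4.56, 4.96 and 2.29 CPM in CK-p25 replicates 1, 2 and 3. The groups overlapped through replicate 3 of each, where the domain held 4 and 3 reads. For the 4 reads of the CK library, the 95% exact Poisson interval of the level ran from 1.10 to 10.4 CPM, and this interval covers counting error only. The log2 change was 1.25 ± 0.51 (edgeR adjusted p = 0.228). It was 1.72 without CK replicate 3 and 0.64 without CK replicate 1, with adjusted p-values of 0.121 and 0.732.

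At -27.8 kb the level was 4.10, 2.60 and 1.01 CPM in CK and 6.00, 3.97 and 7.62 CPM in CK-p25 mice. The groups met where CK replicate 1 exceeded CK-p25 replicate 2, and the log2 change was 0.82 ± 0.42 (edgeR adjusted p = 0.399). It was 1.48 without CK replicate 1 and 0.51 without both shallow libraries, with adjusted p-values of 0.257 and 0.793. At +209 kb, where CK held 3.79, 4.56 and 2.03 CPM and CK-p25 6.96, 4.30 and 6.86 CPM, the change was 0.70 ± 0.39 (edgeR adjusted p = 0.481). At -75.2 kb it was 0.29 ± 0.46 (edgeR adjusted p = 0.879), with 3.16, 3.26 and 2.03 CPM in CK and 3.60, 3.64 and 3.81 CPM in CK-p25 mice.

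The ranges of the groups did not overlap, with CK-p25 above CK, at 2 of the 7 members at 6 weeks, the broad domain and the -75.2 kb domain. Over all domains this held for 8.44%. The domains at -7.86 kb and +202 kb did not reach the count minimum and held 2 to 14 and 2 to 9 reads per library at 6 weeks. At +202 kb the CK libraries averaged 1.74 ± 0.385 CPM and the CK-p25 libraries 1.82 ± 1.04 CPM (SD, n = 3 each), with overlapping ranges. At -7.86 kb CK replicates 1, 2 and 3 held 2.52, 1.30 and 5.06 CPM, and their CK-p25 counterparts held 3.36, 2.98 and 5.33 CPM. The ranges overlapped there as well, and replicate 3, the shallowest library, was the highest of each group.

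**Figure D2:**
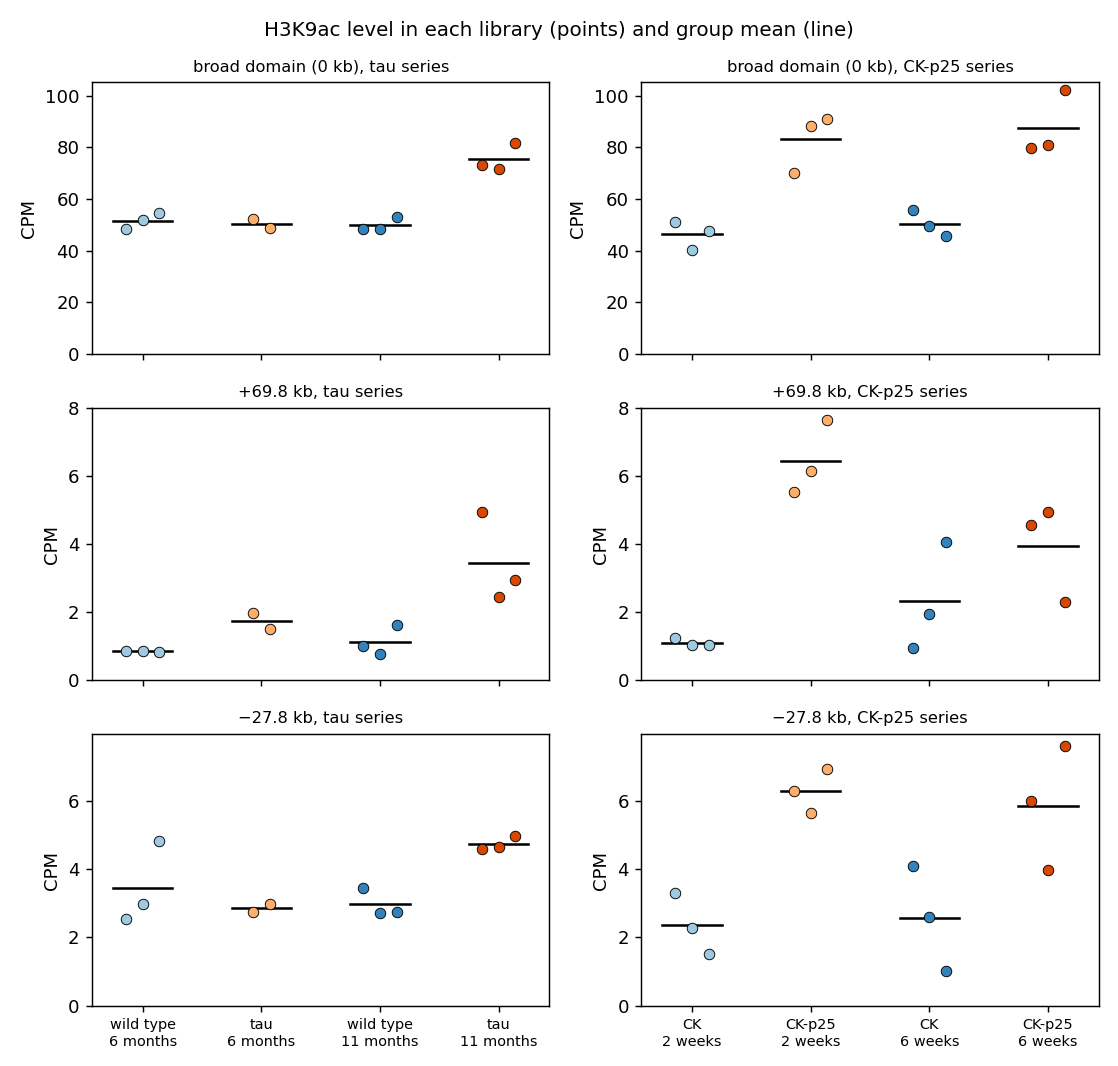
H3K9ac level in CPM of the broad domain (top), the +69.8 kb domain (middle) and the -27.8 kb domain (bottom) by group, with a point for each library and a line at the group mean. The broad domain lies between 70.2 and 102 CPM in the CK-p25 libraries and between 40.4 and 55.8 CPM in the CK libraries.

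In tau mice at 6 months the locus did not differ detectably from wild type. The broad domain was at 52.1 and 48.8 CPM in the 2 tau libraries and at 48.2, 52.0 and 54.4 CPM in the 3 wild type libraries. The tau values lay within the wild type range, and the log2 change was -0.03 ± 0.09 (edgeR adjusted p = 1). Its 95% interval ran from -0.22 to 0.15. All 7 members were tested, 0 passed, and 0 had an unadjusted p under 0.05. The domains at +69.8 kb and +202 kb met the filter on low counts only when the 11-month libraries were included. On the 6-month libraries alone 5 members met it, and 0 of them passed. Of 44105 domains 0% passed in edgeR's test, and DESeq2 also called 0. An unadjusted edgeR p under 0.05 was found for 1427 domains, less than the share of 0.05 that arises with no difference.

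The +69.8 kb domain had the largest change among the members at 6 months. It held 10 and 7 reads in tau and 4 reads in each wild type library, which is 1.97 and 1.49 CPM against 0.846, 0.855 and 0.806 CPM. Both tau libraries were above all wild type libraries, and the log2 change was 1.03 ± 0.60 (edgeR adjusted p = 1, unadjusted p = 0.0873). From the summed reads, the ratio of tau to wild type was 2.08. Its 95% exact counting interval, which leaves out the spread between libraries, ran from 0.937 to 4.78. This domain was the 1 member of 7 with non-overlapping groups in this direction, against 9.71% of all domains. The -75.2 kb domain went the other way without overlap, at 2.75 and 3.20 CPM in tau and 3.81, 3.64 and 4.03 CPM in wild type mice (log2 -0.37 ± 0.35, edgeR adjusted p = 1), and 10.1% of all domains were lower without overlap. The 4 remaining narrow domains overlapped between groups, with log2 changes from -0.28 to 0.08. At -27.8 kb tau libraries held 2.75 and 2.98 CPM and wild type libraries 2.54, 2.99 and 4.84 CPM. At -7.86 kb these levels were 1.57 and 2.13 CPM against 1.27, 2.35 and 2.82 CPM. At +209 kb they were 2.75 and 3.41 CPM against 1.90, 4.49 and 3.43 CPM. At each of these 3 domains both tau libraries lay between the lowest and the highest wild type library.

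At 11 months, treated as one of the comparisons the window was chosen from, the broad domain was at 73.2, 71.7 and 81.7 CPM in tau mice (75.5 ± 5.39, SD, n = 3). In wild type mice it was at 48.4, 48.3 and 53.1 CPM (49.9 ± 2.72, n = 3). All tau libraries were above all wild type libraries, by 0.59 ± 0.08 (SE) on the log2 scale, which is 1.51-fold. At this age cross correlation was lower in every tau library, at 0.206 to 0.257 against 0.296 to 0.342. With cross correlation as a covariate the change of the broad domain was 0.53. Since cross correlation did not overlap between the genotypes at this age, that fit cannot reliably tell the 2 apart. The narrow domains moved more under that covariate, to 0.19 at -75.2 kb, 0.83 at -27.8 kb, 0.82 at -7.86 kb and 2.52 at +69.8 kb.

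At +69.8 kb the level at 11 months was 4.95, 2.44 and 2.94 CPM in tau and 0.989, 0.776 and 1.62 CPM in wild type mice. No tau library reached down to the wild type range, and the log2 change was 1.59 ± 0.42. This domain thus had the largest log2 change of the 7. The ratio of summed reads was 3.07, with a 95% exact counting interval of 1.81 to 5.43. Such an interval covers counting error of the pooled reads only, without the spread between libraries, and is no test. At -27.8 kb the tau libraries held 4.58, 4.63 and 4.97 CPM and the wild type libraries 3.46, 2.72 and 2.76 CPM, a log2 change of 0.65 ± 0.29.

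At -75.2 kb tau mice were at 3.85, 4.15 and 6.07 CPM and wild type mice at 3.63, 3.10 and 3.57 CPM. These groups did not overlap, but the log2 change of 0.45 ± 0.28 fell to 0.20 without tau replicate 3. At +202 kb the change was 1.18 ± 0.48 and the groups overlapped. Levels there were 2.18 ± 0.954 CPM in tau and 0.969 ± 0.303 CPM in wild type libraries (SD, n = 3 each). On the 11-month libraries alone 6 members met the filter on low counts, and the +202 kb domain did not.

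The domains at -7.86 kb and +209 kb overlapped as well at 11 months. At -7.86 kb tau replicates held 2.93, 2.44 and 3.31 CPM and wild type replicates 2.80, 2.91 and 1.30 CPM, a change of 0.33 ± 0.37 that was 0.030 without wild type replicate 3. At +209 kb the levels were 3.30, 3.42 and 5.15 CPM in tau and 2.80, 3.49 and 3.08 CPM in wild type mice, a change of 0.35 ± 0.31. Tau replicate 3 was the highest library at both. The change at +209 kb was -0.05 with cross correlation as a covariate and 0.10 without that library. In all, 4 of 7 members were higher in tau mice without overlap, where 11.8% of all domains were. All 7 changes were positive, against 51% of all tested domains, in a comparison the window was taken to be chosen from.

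At 2 weeks, the other comparison the window was chosen from, CK-p25 replicates held 70.2, 88.4 and 90.9 CPM over the broad domain (83.2 ± 11.3, SD, n = 3). CK replicates held 51.2, 40.4 and 47.7 CPM (46.4 ± 5.49, n = 3). No library of one group entered the range of the other, and the log2 change was 0.85 ± 0.11 (SE), which is 1.80-fold. Cross correlation overlapped between these groups, at 0.141 to 0.187 in CK-p25 and 0.108 to 0.179 in CK libraries.

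The +69.8 kb domain again had the largest log2 change. It held 3, 4 and 2 reads in the CK libraries and 23, 24 and 21 reads in the CK-p25 libraries, which is 1.24, 1.02 and 1.02 CPM against 5.55, 6.17 and 7.67 CPM. The summed reads, 9 against 68, gave a ratio of 5.84 with a 95% exact counting interval of 2.90 to 13.3. That interval pools reads over libraries, leaves out the spread between them and is no test. The fitted log2 change was 2.50 ± 0.46. The CK level thus rests on few reads, while each CK-p25 library held 21 or more.

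At -27.8 kb CK mice were at 3.30, 2.29 and 1.52 CPM and CK-p25 mice at 6.28, 5.66 and 6.94 CPM, with no overlap and a log2 change of 1.36 ± 0.37. At +209 kb the levels were 1.65, 3.05 and 3.05 CPM in CK and 4.10, 5.40 and 4.75 CPM in CK-p25 mice, again without overlap (log2 0.83 ± 0.38). The +202 kb domain was also higher without overlap, from 0.900 ± 0.441 to 1.83 ± 0.645 CPM (SD, n = 3 each), on 1 to 10 reads per library. The domains at -75.2 kb and -7.86 kb overlapped. At -75.2 kb CK libraries were at 3.72, 4.32 and 2.03 CPM and CK-p25 libraries at 4.10, 4.11 and 4.02 CPM, a change of 0.19 ± 0.38. That change was -0.0064 without CK replicate 3 and 0.46 without CK replicate 2. At -7.86 kb they were at 3.30, 1.78 and 1.52 CPM and at 2.90, 2.57 and 2.56 CPM, so that CK replicate 1 exceeded all CK-p25 libraries. In all, 5 of 7 members were higher without overlap, where 8.14% of all domains were. The window was taken to be chosen from this comparison, so these shares are a description and no test. Among the 5, the +202 kb domain did not reach the count minimum. Its lowest CK-p25 library, replicate 1, held 1.45 CPM on 6 reads. Its highest CK library, replicate 2, held 1.27 CPM on 5 reads.

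**Figure D3:**
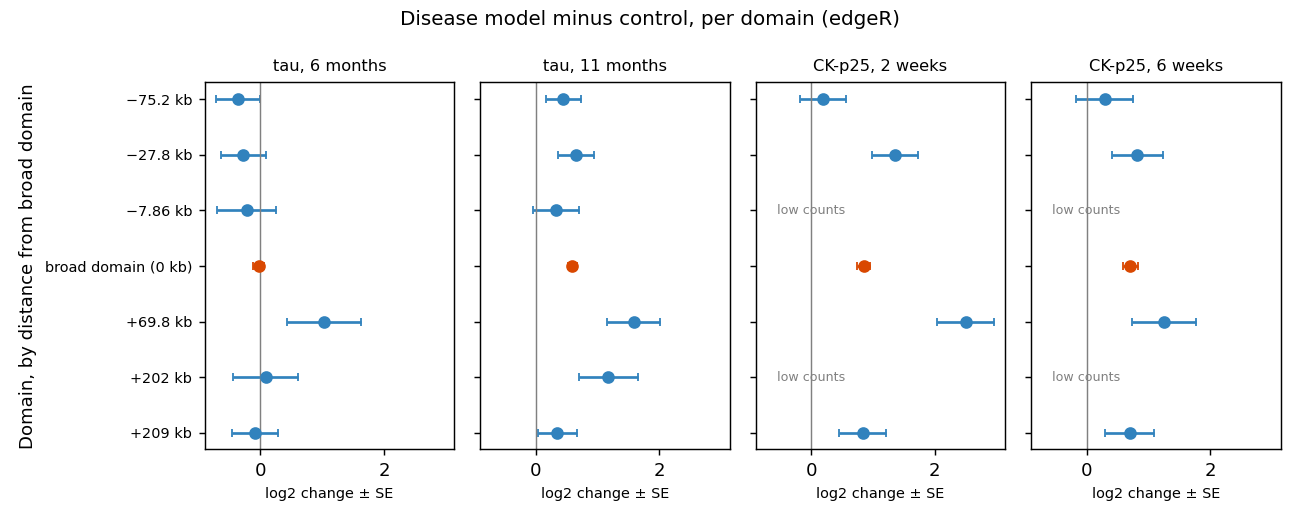
Log2 change of each domain (disease model minus control, point) with its standard error (bar) in the 4 comparisons, with domains ordered by distance from the broad domain. The +69.8 kb domain has the largest change in each panel, from 1.03 to 2.50, and the broad domain the smallest standard error, from 0.08 to 0.12; 2 domains did not reach the count minimum in the CK-p25 series.

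Within the tau series the mean levels of the broad domain ran from 49.9 CPM in wild type mice at 11 months over 50.5 CPM in tau mice at 6 months to 51.5 CPM in wild type mice at 6 months. These 3 differed by less than the SD within groups, and tau mice at 11 months stood above them at 75.5 CPM. Within the CK-p25 series CK mice were at 46.4 CPM at 2 weeks and 50.3 CPM at 6 weeks, and CK-p25 mice at 83.2 and 87.7 CPM. Neither the controls nor the CK-p25 groups differed between the times by more than the SD within groups.

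Over the +69.8 kb domain the group means ran in another order, on few reads. Among CK-p25 mice its mean was 6.46 ± 1.09 CPM at 2 weeks and 3.93 ± 1.44 CPM at 6 weeks (SD, n = 3 each), where replicate 3 rests on 3 reads. In CK mice it was 1.09 ± 0.128 and 2.32 ± 1.58 CPM, on 2 to 4 and on 3 to 4 reads per library. The 6-week CK mean includes 4.05 CPM in replicate 3, which rests on 4 reads. Whether the effect of p25 differed between the times was not tested, since the 2-week libraries were among those the window was chosen from.

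Summed over all 7 domains, the locus held 94.6 to 118 CPM in CK-p25 libraries at 2 weeks against 54.2 to 64.8 CPM in CK libraries, a ratio of 1.85. At 6 weeks these were 104 to 130 CPM and 61.8 to 72.3 CPM, a ratio of 1.71. At 11 months the summed level was 97.4 ± 8.89 CPM with tau and 63.9 ± 2.12 CPM in wild type mice (SD, n = 3 each), a ratio of 1.52. At 6 months the tau libraries, at 64.3 and 65.3 CPM, lay within the wild type range of 60.5 to 72.4 CPM. Without the broad domain the ratios were 2.09, 1.59 and 1.57 in the first 3 comparisons and 0.941 at 6 months. The narrow domains together gave ratios above 1 in the same 3 comparisons as the broad domain. Those at 2 weeks and at 11 months are the comparisons the choice of the window was taken to rest on.

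Windows of the same length, 1.05 Mb, on either side held 3 and 4 domains. In the lower window most of the level lay in a single domain, at 115215480 to 115220638. In tau mice at 11 months that domain averaged 142 of 147 CPM. Over the lower window the ratios of disease model to control were 1.02 and 1.01 in tau mice at 6 and 11 months. In CK-p25 mice they were 0.976 and 1.07 at 2 and 6 weeks. The groups overlapped there in each comparison. Over the upper one the ratios were 1.04, 1.09, 1.08 and 1.11 in the same order, and the groups did not overlap at 11 months and at 6 weeks. Differences in ratio between the locus and these windows were not tested.

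**Figure D4:**
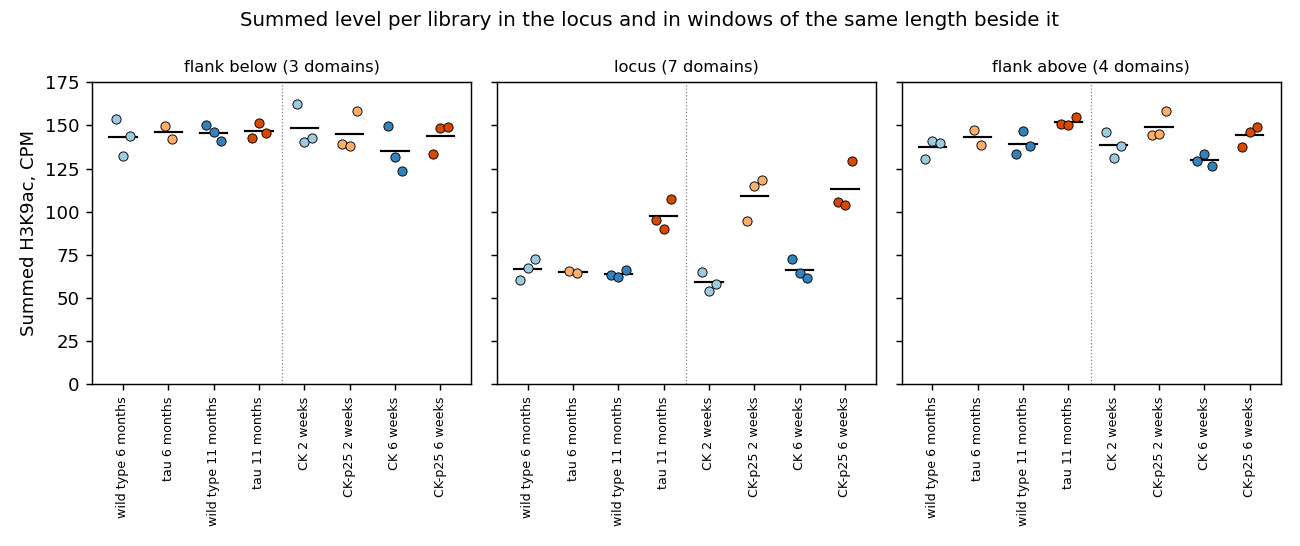
Summed H3K9ac level in CPM per library (points) and group mean (lines) over the 7 domains of the locus (middle) and over windows of the same length below (left) and above it (right). In the locus, CK-p25 libraries lie at 94.6 CPM or more and CK libraries at 72.3 CPM or less. The lower window, whose level lies mostly in a single domain, shows overlapping groups in each comparison.

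The nearest domain below the window lay 729.4 kb away, at 115215480 to 115220638, and was 5159 bp wide. This is the same domain that held most of the level of the lower flanking window. Its log2 changes were 0.00 ± 0.06 in tau mice at 11 months and -0.02 ± 0.08 in CK-p25 mice at 2 weeks. The nearest above, 159.3 kb past the upper end, was the 3042 bp domain from 117159290 to 117162331. It was at 32.9 ± 4.64 CPM in tau and 24.1 ± 0.426 CPM in wild type mice at 11 months (SD, n = 3 each; log2 0.45 ± 0.11), with no overlap. In CK-p25 mice its change was 0.26 ± 0.14 at 2 weeks, with overlapping groups, and 0.36 ± 0.16 at 6 weeks (edgeR adjusted p = 0.304).

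Domains elsewhere were ranked by how closely they followed the summed locus over the 8 group means. The measure was the root mean square difference of log2 levels centred within each series, among 18061 domains with a mean of at least 10 CPM in each series. The closest was on chromosome 2 from 62483223 to 62484934, with a difference of 0.0523 against a median of 0.355 over all candidates. Its log2 changes were 0.71 in tau mice at 11 months, 1.09 at 2 weeks and 0.72 at 6 weeks in CK-p25 mice, and -0.09 in tau mice at 6 months. The next were on chromosome 2 (160189559 to 160195040, 0.0556), chromosome 7 (106852192 to 106855888, 0.0586 and 52337446 to 52339206, 0.0609) and chromosome 3 (142222665 to 142224810, 0.0691). With a minimum of 5 CPM, 1 of these 5 stayed among the 5 closest.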

How the data were processed

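The authors deposited raw read counts for 44165 domains in 23 H3K9ac libraries, with no normalization, and a list of domain coordinates. The 22 input DNA libraries have no column there, and 0 count columns were left without a sample. The tools named by the submitters' processing notes are MACS2, Picard 1.1175 and BWA, and the build is mm9, with no roles given. Per the series' design text, input DNA served in peak calling. That text describes a common set of peaks, and for duplicate reads the handling was not given in the sources used here. Positions are 1-based.

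For the tests, counts went into edgeR 4.0.16 under R 4.3.3 (quasi-likelihood F test, robust dispersion, TMM factors, filterByExpr by group), two-sided, with Benjamini-Hochberg adjustment over all domains tested and a threshold of 0.05. Each series was fitted apart with a mean per group. The fitting steps were run on counts simulated from edgeR's own dispersions, which does not test how well the model suits these libraries. The filter, applied over all groups of a series, kept 7 of 7 members in the tau series and 5 in the CK-p25 series. Standard errors are the change over the square root of F. The member window and the lists were chosen with earlier results of these data known. Values are given in every library for the 6 members with the highest mean CPM and for members past the threshold, and the nearest outside domain at each end and the 5 domains most like the locus are named. Lists of genes need an annotation of mm9 and were not tested. Replicate pairs of a group differed by more than sampling noise (chi-square 1.10 to 1.88 times its degrees of freedom). DESeq2 1.42.0 was an alternative.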

Additional observations from a re-analysis of the deposited data

Results flagged for a closer look

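At -75.2 kb the changes of tau mice pointed in opposite directions at the 2 ages without overlap of the groups: both tau libraries lay below all wild type libraries at 6 months (log2 -0.37 ± 0.35, SE), and all 3 lay above them at 11 months (0.45 ± 0.28). Opposite directions without overlap at both ages were seen in 2.33% of all domains. The 11-month change was 0.20 without tau replicate 3 and 0.19 with cross correlation as a covariate. The difference between the ages was not tested, and age and sex changed together. The domain held 14 to 33 reads per library in the tau series.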

How the results depend on the processing

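At 6 weeks 1 tested member, the broad domain, passed in edgeR under every alternative tried (scaling, filter, covariate, compared groups alone, a threshold of 0.01, each library left out, both shallow libraries left out) and in DESeq2. Its log2 change ran from 0.59 to 0.84 and its adjusted p from 6.53e-06 to 0.00282. At 6 months 0 members passed in any alternative. Deviations of same-numbered libraries correlated at -0.0144 to 0.0548, which does not show pairing but cannot exclude a batch shared by replicate number. At 6 weeks reads in domains and cross correlation fell from replicate 1 to replicate 3 in both groups. With a replicate block the broad domain at 6 weeks was at 0.71 (edgeR adjusted p = 6.53e-06). The block turned the sign of 3 changes at 6 months, none of which passed, to 0.052 at -27.8 kb, 0.043 at -7.86 kb and 0.011 in the broad domain. Leaving out single libraries at 6 months gave -0.46 to 0.049, -0.49 to 0.026 and -0.080 to 0.016 for these domains, -0.33 to 0.43 at +202 kb and -0.36 to 0.19 at +209 kb. The log2 ratio of the summed locus at 2 weeks went from 0.89 to 1.06 without the broad domain. Of the 5 domains most like the locus, 1 was shared at a minimum of 5 CPM. That minimum widened the candidates from 18061 to 25596 domains, and added domains took the other places. In all, 374 of 394 recomputed values kept their direction and side of the threshold or moved by less than the spread between libraries. Depth limits the narrow domains, which held 1 to 33 reads per library.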
